A study of Mus musculus with 2 samples.

Results

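The methionine cycle and the transsulfuration route that leaves it were followed here through 10 genes, Mat2a, Mat2b, Ahcy, Ahcyl1, Mtr, Mtrr, Cbs, Cth, Bhmt and Gnmt. They were chosen by name, with earlier results of these data known. Every non-control spot of both arrays whose gene name is one of these was taken, which gave 18 probes of 1 spot each. All 10 genes were measured on both arrays, out of 19805 genes measured in all. The samples are 661W cells, a mouse line described as photoreceptor, grown for 3 days in DMEM/F12 medium without choline or in the same medium with choline. The labels' growth protocol for the line includes fetal bovine serum, and whether the choline-free medium held serum is not stated there. The labels state choline in the sufficient medium as 8.98 g/L, a figure whose unit could not be verified from the files. RNA was read on single-colour Agilent arrays, with 1 array without choline and 1 array with choline, on the same slide. The design text speaks of RNA pooled over 4 dishes without saying how these were divided. No difference has a replicate check, no p-value is given, and culture, array and condition cannot be told apart.

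In the methionine cycle, methionine is joined to adenosine to make S-adenosylmethionine, the methyl donor of most cellular methylation, including the stepwise methylation by which cells can make phosphatidylcholine. Spent donor is split to homocysteine, which is either methylated back to methionine, with a methyl group from folate or from betaine, the oxidation product of choline, or passed by transsulfuration to cysteine. Choline therefore feeds the cycle through betaine, a route known chiefly from liver and kidney.

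Below, a level is the log2 processed signal of an array minus that array's 75th percentile, and a difference is the level without choline minus the level with choline. The value after ± is the scanner software's error carried through to the difference. It covers the measurement on the arrays and not the variation between cultures. Its median over all genes was 0.20, and the software's model sets a floor near that value, while spots of a single probe differed with a median SD of 0.05 over 268 probes printed many times. Where a gene had 2 or more measured probes (5147 genes), the range between its probes had a median of 0.23. In bulk RNA, fewer cells of a type and less RNA per cell cannot be told apart.

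The probes behind the results are shown first, because the largest differences rest on 1 or 2 of them each. Each is given 5′ to 3′ as the array files hold it, with its position on the mouse build mm9, whole for 3 probes and as the 30 bases at its 5′ end for the other 4. The Cth and Ahcy pairs show that both probes of a gene read different stretches of it, the Cbs probe is the only one for its gene, and the Bhmt pair is the single probe with signal and one of those without.
Cth A_55_P1959923, chr3:157560183-157560242, minus strand: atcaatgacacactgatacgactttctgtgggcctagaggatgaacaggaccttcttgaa
Cth A_51_P431737, chr3:157557667-157557726, minus strand: ccaaatcttcggaataactggacagatcat
Cbs A_55_P2078670, chr17:31749593-31749652, minus strand: gcacccactttctgtctcaatggatctccc
Ahcy A_52_P176160, chr2:154891321-154891380, minus strand: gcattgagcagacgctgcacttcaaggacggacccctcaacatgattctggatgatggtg
Ahcy A_55_P2000938, chr2:154885047-154885106, minus strand: acttaacccatttgacctggaaagcaaata
Bhmt A_55_P2103969, chr13:94395097-94395156, minus strand: tatctacttaactttccagatctttttcca
Bhmt A_55_P2103963, chr13:94386836-94386840, minus strand: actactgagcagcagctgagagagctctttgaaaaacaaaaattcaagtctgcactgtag
The longest exact run that a probe of the 10 genes shared with a probe of another gene name was 22 bases, in Mtr A_55_P1997866, and 13 to 15 bases in the other 17 probes. For Bhmt A_55_P2103963 the position given in the files covers 5 bases only.

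The transsulfuration genes had the largest differences of the 10, and both were lower without choline. Cth encodes cystathionine gamma-lyase, the enzyme that releases cysteine. Its first probe in the list above had a processed signal of 2749 without choline, against 10894 with choline, and its second probe had 3996 without choline, against 14999 with choline. The differences of the 2 probes were -2.32 ± 0.20 and -2.24 ± 0.20, a range of 0.08, which is smaller than the median range between probes of a gene. For the gene the level was 1.04 without choline, against 3.32 with choline, a difference of -2.28 ± 0.20, so Cth was 4.85-fold lower. Of the 19805 measured genes, 85 (0.43%) had a lower difference than Cth. Its difference was between -2.40 and -2.01 under all 10 ways of processing tried. Some of these could hardly change it. The filters on dim and brighter probes kept the same 2 probes, and the deposited table has nearly the reported scaling.

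Cbs encodes cystathionine beta-synthase, which commits homocysteine to transsulfuration. Its only probe had a signal of 245.7 without choline, against 394.5 with choline. The level was -2.71 without choline, against -1.70 with choline, a difference of -1.01 ± 0.20, or 2.02-fold lower. Under the 9 ways of processing that kept its probe it was between -1.13 and -0.74. That is past 1.5-fold in each of them, but under 2-fold in part of them. Not all of these settings could differ. With 1 probe, the unfiltered and brightest-probe settings must give the same value, and the deposited table has nearly the reported scaling. With a single probe, nothing in the files checks this value within the gene.

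Ahcy encodes the hydrolase that splits S-adenosylhomocysteine, the product of every methylation by the donor and an inhibitor of the enzymes that make it. Its probe A_52_P176160 had a signal of 600.4 without choline, against 913.3 with choline, and its probe A_55_P2000938 had 3583 without choline, against 4035 with choline. The differences of these probes were -0.94 and -0.50, so the first was past 1.5-fold and the second was not. Over both, Ahcy had a level of -0.13 without choline, against 0.59 with choline, a difference of -0.72 ± 0.20, or 1.65-fold lower. It was under 1.5-fold with the brightest probe alone (-0.50) and with scaling to spike-in probes (-0.45). Ahcyl1, which encodes a related protein without that hydrolase activity, known as a partner of inositol trisphosphate receptors, was the one gene of the 10 with a positive difference at the reported scaling. Its probes had signals of 4909 and 437.9 without choline, against 3118 and 329.2 with choline. The level was -0.13 without choline, against -0.34 with choline, a difference of 0.20 ± 0.20, which is no larger than its error. The 2 probes gave 0.32 and 0.08, and the gene's difference was 0.47, under 1.5-fold, with spike-in scaling.

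**Figure D1:**
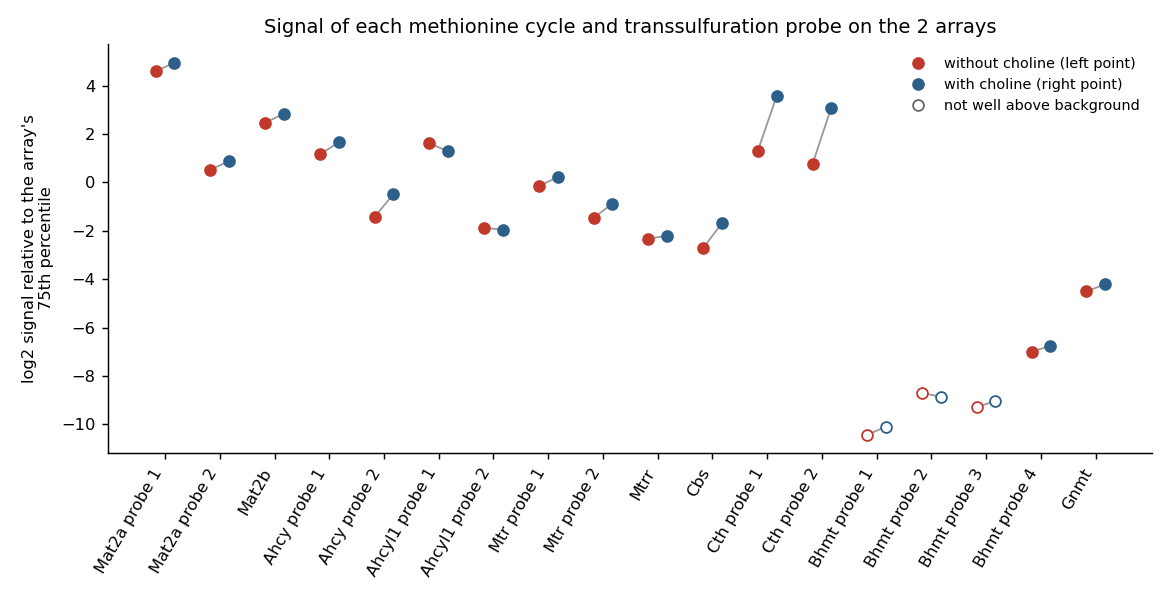
Level (log2 processed signal relative to the array's 75th percentile) of each of the 18 probes, with the array without choline as the left red point and the array with choline as the right blue point. Both Cth probes stand more than 2 units lower without choline, the Cbs probe 1.01 lower, and 3 of 4 Bhmt probes, drawn open, were not well above background on either array.

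The genes that make S-adenosylmethionine had small differences of one size. Mat2a encodes the catalytic subunit of the methionine adenosyltransferase of tissues other than adult liver. Its 2 probes had signals of 38760 and 2320 without choline, against 39588 and 2347 with choline, so the unscaled signals were nearly the same. Because the 75th percentile of signal was 1609 on the array without choline, against 1280 with choline, the scaled difference of Mat2a was -0.35 ± 0.20, with its probes at -0.36 and -0.35. Mat2b, the regulatory subunit, had a signal of 8921 without choline, against 9116 with choline, and a difference of -0.36 ± 0.20. Both were within 2 errors of 0, and with spike-in scaling Mat2a had -0.08 and Mat2b -0.09.

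Remethylation of homocysteine also showed no gene past 1.5-fold. Mtr encodes methionine synthase, the cobalamin enzyme that takes a methyl group from folate. Its probes had signals of 1451 and 584.4 without choline, against 1483 and 694.0 with choline. The difference was -0.47 ± 0.20, just over 2 errors and the largest among the 7 members short of 1.5-fold. It was -0.59, past 1.5-fold, with median scaling, and -0.20, no larger than its error, with spike-in scaling. Mtrr, the reductase that reactivates methionine synthase, had a signal of 320.5 without choline, against 278.0 with choline. Its difference was -0.13 ± 0.20, and it was 0.15 with spike-in scaling.

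Bhmt and Gnmt are both abundant in liver, and Bhmt was dim in these cells. Bhmt encodes the betaine-homocysteine methyltransferase, the step where the methyl group of choline enters the cycle. Of its 4 probes, the 3 assigned to its RefSeq transcript were not well above background on either array, with signals of 1.17, 3.84 and 2.59 without choline, against 1.17, 2.76 and 2.43 with choline. The fourth, A_55_P2103969, which the files assign to an Ensembl transcript only, had 12.6 without choline, against 11.8 with choline. The Bhmt difference of -0.24 ± 0.26 rests on that probe alone, and it was 0.03 with spike-in scaling. Gnmt encodes glycine N-methyltransferase, which uses up surplus donor. Its one probe had a signal of 70.9 without choline, against 69.0 with choline, and a difference of -0.29 ± 0.21. The median signal of non-control spots was 65.8 without choline, against 48.1 with choline. Of 7 hepatocyte genes looked at, Alb, Ttr, Apoa1, Mat1a and Hpd were not well above background on either array, and Cps1 and Serpina1a were, with levels of -7.13 and -7.15 without choline, against -7.24 and -6.76 with choline.

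Across the 10 genes, 3 were at least 1.5-fold lower without choline (Cth, Cbs and Ahcy), where 14.1% of all measured genes were, and 0 were at least 1.5-fold higher, where 14.8% of all measured genes were. The size of 1.5-fold was a fixed mark and not a test, and the members were chosen with earlier results of these data known. By more than 2 errors, 4 members were lower (these 3 and Mtr), where 22.6% of all measured genes were, and 0 were higher, where 19.4% were. At least 2-fold lower were 2 members, Cth and Cbs, where 3.88% of all measured genes were, and 0 were 2-fold higher, where 7.67% were. The median difference of the members was -0.36, beside -0.10 over all measured genes. The differences of 9 of 10 members were negative with the reported scaling, but 7 of 10 with spike-in scaling, where Mtrr and Bhmt turned positive. Most genes were negative with the reported scaling too, since the median of all genes was -0.10. With spike-in scaling that median was 0.18, so most genes were positive there. Of the 9 negative members, only the 4 named above were past 2 errors. Against the median of all genes, 9 of 10 members were lower with the reported scaling. Spike-in scaling adds one constant to every gene, so that count could not change under it. After normexp background correction it was 8 of 10, and with no filter on dim probes 7 of 10. Among the genes at least 1.5-fold apart, those higher without choline were 51.1% with the reported scaling, 37.1% with median scaling and 80.2% with spike-in scaling, which moved the median of all genes by -0.12 and 0.27.

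**Figure D2:**
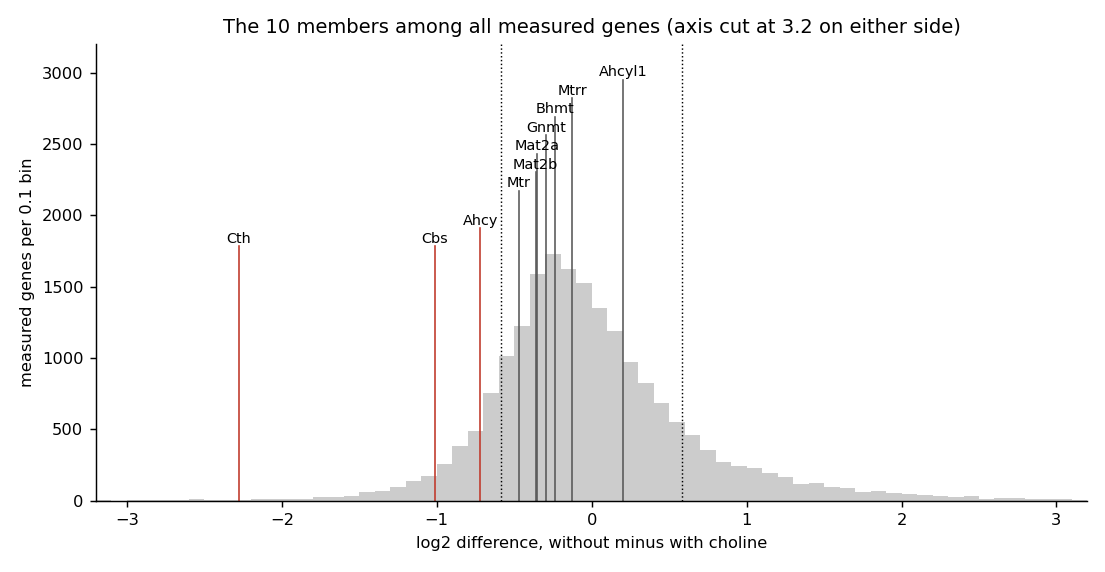
Number of measured genes per 0.1 bin of the log2 difference (without minus with choline), with a line at each of the 10 members and dotted lines at 1.5-fold. Cth at -2.28, Cbs at -1.01 and Ahcy at -0.72 (red) lie past the lower dotted line, and the other 7 members lie in the body of the distribution.

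**Figure D3:**
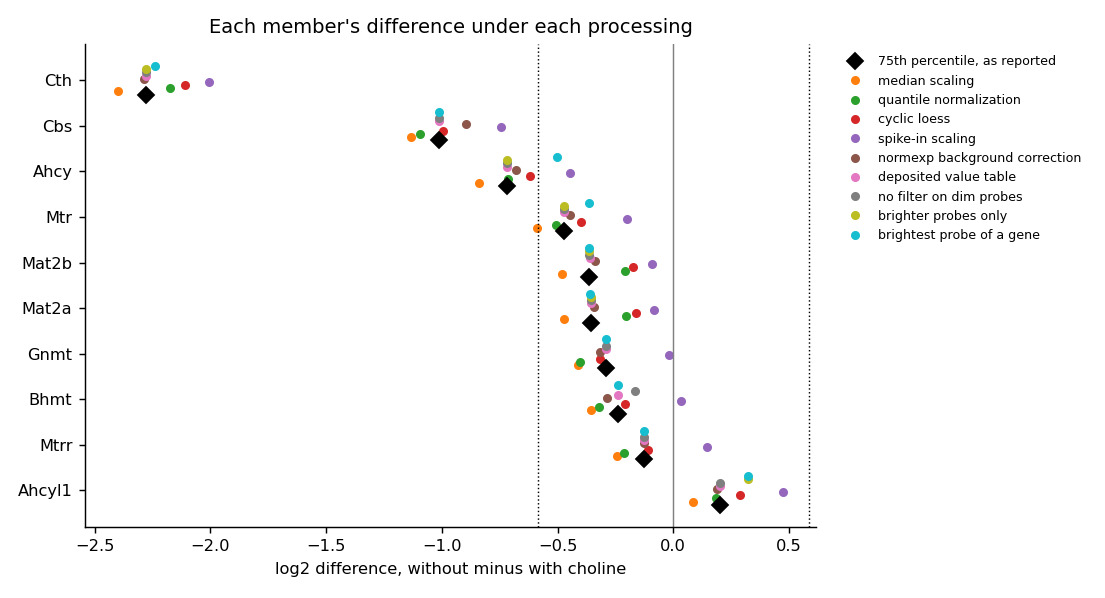
Log2 difference (without minus with choline) of each member under 10 ways of processing, 1 colour each, with dotted lines at 1.5-fold; Mtrr, Cbs, Bhmt and Gnmt have no point for the brighter probes only. Cth and Cbs stay past the lower line in every setting drawn for them, Ahcy crosses it with the brightest probe and with spike-in scaling, Mtr crosses it the other way with median scaling, and Mtrr and Bhmt cross 0 with spike-in scaling.

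The neighbouring steps were described through 9 lists, which together held 100 measured genes. Past 1.5-fold, 12 of these (12%) were higher without choline, beside 14.8% of all genes, and 20 (20%) were lower, beside 14.1% of all genes. Spike-in scaling, which adds one constant to every gene, gave 18 higher, beside 24.2% of all genes, and 8 lower, beside 5.96% of all genes. After cyclic loess the counts were 13 and 11, beside 16.5% and 10.7% of all genes. Set against the median of all genes, the list medians stayed below it in all 10 ways of processing for the carriers (-0.24 as reported), cobalamin (-0.13), polyamines (-0.21) and amino acid shortage (-0.30). They stayed above it for the other cycle genes (0.20), betaine (0.32) and cysteine use (0.38), and lay on both sides for folate and glutathione. Median scaling, spike-in scaling and the deposited table shift every gene by one constant, so these settings could not change such a position.

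Upstream of the cycle, the list of methionine and neutral amino acid carriers had 2 members higher and 1 lower among 9 measured, with a median of -0.33. Of all measured genes, 14.8% were higher and 14.1% lower. Slc43a2, a carrier of large neutral amino acids, was 3.40-fold higher, with a level of -2.53 without choline, against -4.29 with choline. Slc7a7, of the y+L system, was 1.69-fold higher, and the glutamine carrier Slc38a1 was 1.99-fold lower. The supply of betaine was poorly covered: Chdh, the choline dehydrogenase gene, and Dmgdh were not well above background on either array, and of the 3 measured genes Aldh7a1, Sardh and Pipox 0 passed 1.5-fold. The betaine carrier gene Slc6a12 was well above background only with choline, and it was dim there, at a level of -7.02. Counted against the lowest signal well above background on the array without choline, it was at least 2.99-fold lower without choline. That floor is of the whole array and not of this probe.

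The folate list had a median of -0.03 and 14 measured genes, of which 2 were higher and 2 lower. The shares over all measured genes were 14.8% higher and 14.1% lower. Folr1, a folate receptor, was 2.47-fold higher and Mthfd1l, the mitochondrial formate-releasing enzyme gene, 1.60-fold higher. Aldh1l2 and Mthfd2, also of mitochondrial folate metabolism, had differences of -1.03 and -0.59, past 1.5-fold lower. The cobalamin list had 3 genes higher and 2 lower of 10, beside the same shares of all genes, with a median of -0.23. Abcd4, a lysosomal cobalamin exporter, was 3.03-fold higher, while Mmab and Mmaa, of the mitochondrial cobalamin branch, were 2.31-fold and 1.77-fold higher. Mmut, the methylmalonyl-CoA mutase of that branch, was 1.76-fold lower.

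Genes that use S-adenosylmethionine or regulate it stood on both sides. In the list of other cycle genes 1 of 9 was higher and 1 lower, with a median of 0.11. Among all measured genes 14.8% were higher and 14.1% lower. Gamt, which takes a methyl group from the donor to make creatine, was 5.57-fold higher, at a level of 1.28 without choline, against -1.20 with choline, and its 2 probes gave 2.44 and 2.52. Nnmt, which methylates nicotinamide, was 2.49-fold lower, a difference of -1.31 ± 0.22 with probes at -1.48 and -1.15. Mettl16, an RNA methyltransferase known to act on the Mat2a transcript, had a difference of -0.52 ± 0.20. Mat1a, the liver form of the synthetase gene, and Bhmt2 were not well above background on either array.

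Downstream of transsulfuration, the list of cysteine use and taurine had 3 genes higher and 1 lower of 11, with a median of 0.28. The shares over all measured genes were 14.8% higher and 14.1% lower. Csad, which makes hypotaurine, was 2.51-fold higher, the taurine carrier gene Slc6a6 2.04-fold higher and Ethe1, of mitochondrial sulfide oxidation, 1.59-fold higher, while Got1 was 1.78-fold lower. The glutathione list had a median of -0.08, and 0 of its 11 genes were higher and 2 lower, beside the same shares of all genes. These were Slc7a11, the cystine importer gene, 1.84-fold lower at a difference of -0.88 ± 0.20, and Gclc, the catalytic subunit of the first enzyme of glutathione synthesis, 1.81-fold lower at -0.86 ± 0.20. Its modifier subunit gene Gclm had -0.52 ± 0.20, under 1.5-fold. In the list of polyamine synthesis and methionine salvage 1 of 15 genes was higher and 4 lower, again beside these shares, with a median of -0.30. Paox was 1.78-fold higher, Smox, also a polyamine oxidase gene, 1.77-fold lower, the acetyltransferase gene Sat1 1.76-fold lower and the antizyme gene Oaz2 1.54-fold lower.

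The list of the response to amino acid shortage was also looked at, since Cth is a known target of the transcription factor ATF4. That list, also chosen with earlier results of these data known, had a median of -0.39. Of its 21 measured genes 0 were higher, where 14.8% of all measured genes were, and 7 lower, where 14.1% were. Ppp1r15a was 2.83-fold lower, Atf3 2.17-fold, Stc2 2.17-fold and Ddit3 1.73-fold. Atf4 itself had a difference of -0.34 ± 0.20 and Asns, an asparagine synthetase gene often used as a readout of the response, -0.21 ± 0.20, both under 1.5-fold. The count of lower genes in the list was between 3 and 8 over the ways of processing, beside between 5.96% and 20.4% of all genes. Whether this response had a part in the differences of Cth and Cbs was not tested.

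**Figure D4:**
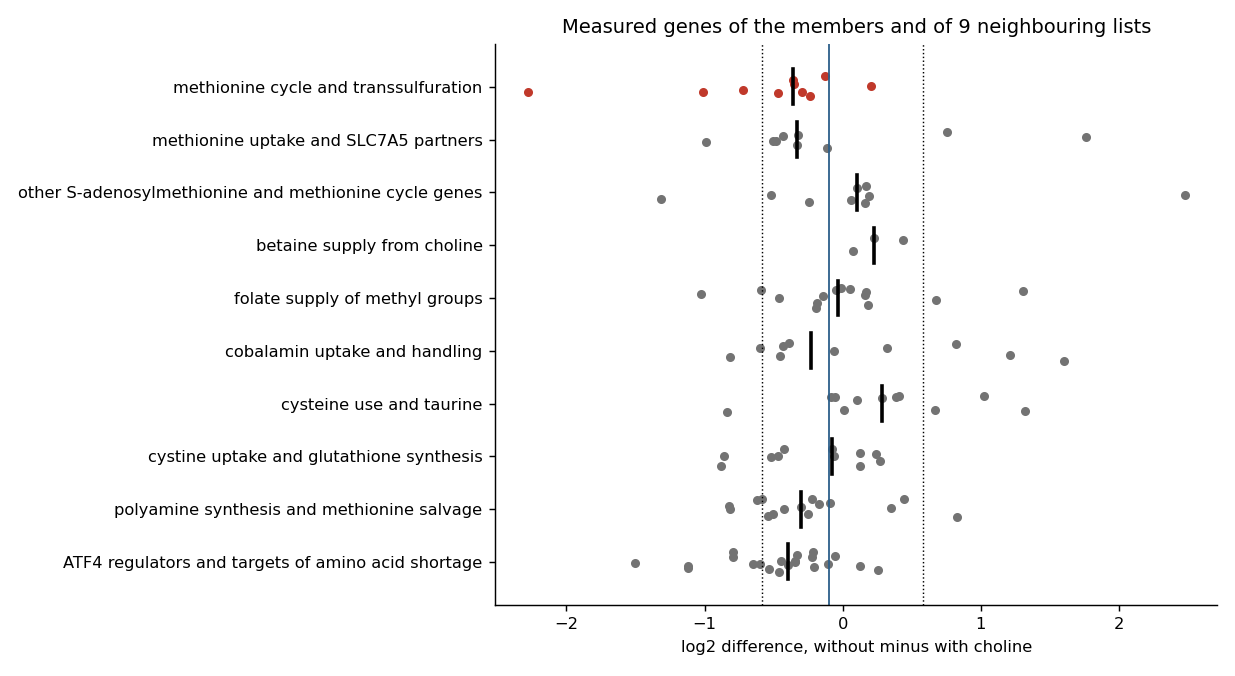
Log2 difference (without minus with choline) of each measured gene of the 10 members (red) and of 9 neighbouring lists (grey), with the median of each list as a black bar, the median of all genes as a blue line and dotted lines at 1.5-fold. Cth at -2.28 is the lowest point drawn and Gamt at 2.48 the highest.

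Promoter sequence was at hand for 9 of the 10 genes, in 12 windows from RefSeq on GRCm38.p6, each from 250 bases before to 50 bases after a start site. Cth has no entry. The windows were searched on both strands, with overlaps between motifs allowed, for the element TGATGNAA bound by C/EBP-ATF dimers, the E-box CACGTG and the antioxidant element TGACNNNGC, which 3.97%, 7.15% and 12.4% of all 32851 windows hold. An E-box was found in the Cbs window and an antioxidant element in 1 of 3 Ahcyl1 windows, and the element TGATGNAA in 0 of 12. The 250 bases before the start site are shown for Cbs and Ahcyl1, which hold these matches in capitals, and for Ahcy, lower without choline like Cbs but with no match.
Cbs promoter, chr17:31637206-31637455, minus strand: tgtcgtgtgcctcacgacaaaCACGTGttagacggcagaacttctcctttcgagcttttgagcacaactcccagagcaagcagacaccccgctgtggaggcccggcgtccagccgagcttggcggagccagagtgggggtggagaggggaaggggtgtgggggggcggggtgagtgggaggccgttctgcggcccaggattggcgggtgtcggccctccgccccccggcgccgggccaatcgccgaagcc
Ahcy promoter, chr2:155074498-155074747, minus strand: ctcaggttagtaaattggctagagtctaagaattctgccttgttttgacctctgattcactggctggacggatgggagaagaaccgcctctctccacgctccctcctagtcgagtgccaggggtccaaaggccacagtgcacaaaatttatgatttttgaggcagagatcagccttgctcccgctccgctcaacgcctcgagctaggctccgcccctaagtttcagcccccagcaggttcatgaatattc
Ahcyl1 promoter, chr3:107696561-107696810, minus strand: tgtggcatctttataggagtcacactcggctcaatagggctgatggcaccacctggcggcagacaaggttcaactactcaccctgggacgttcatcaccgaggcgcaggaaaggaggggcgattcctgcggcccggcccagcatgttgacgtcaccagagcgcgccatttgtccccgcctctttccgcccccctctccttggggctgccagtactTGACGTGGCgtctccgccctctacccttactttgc
The E-box began 229 bases before the Cbs start site and the antioxidant element 35 bases before that of Ahcyl1. A match is a string of letters and not a bound site.

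Markers of the labelled cell type and of other cell types were read on the same arrays. Among all measured genes, 14.8% were at least 1.5-fold higher without choline and 14.1% lower. Of 16 photoreceptor markers 7 were measured on both arrays, with a median difference of 0.56. Past 1.5-fold, 3 were higher without choline (Thrb at 1.17, Pde6h at 0.87 and Gngt2 at 0.72) and 0 lower. Pde6h was dim, at a level of -7.29 without choline, against -8.16 with choline. The other measured markers were Gnat2 at 0.56, Opn1mw at 0.30, Arr3 at -0.41 and Gnat1 at -0.44. For the 7 markers, the log2 of the summed linear levels was -1.16 without choline, against -1.75 with choline. The markers Opn1sw, Cngb3, Crx, Nrl, Pde6b and Rcvrn were among those well above background on neither, with Cnga3 so on the array without choline alone and Pde6c on the array with choline alone. Fibroblast markers differed in the opposite direction to Cth: 7 of 8 measured were at least 1.5-fold higher without choline, with a median of 2.27. The log2 of their summed linear levels was 6.69 without choline, against 3.73 with choline, while Lum stayed dim on both arrays. Among the Muller glia and astrocyte markers 4 of 9 were higher (Slc1a3, Sox9, Vim and Dkk3) and 1 lower (Apoe, 3.29-fold), with a median of 0.26. Glul, Gfap, Aqp4 and Aldh1l1 were under 1.5-fold. The summed log2 level was 5.48 without choline, against 4.19 with choline. That sum rests mostly on Vim, at 4.98 without choline, against 3.91 with choline, and on Dkk3, at 3.36, against 0.16. Sox2 and Kcnj10 were dim on both arrays. The part of these shifts in the differences of Cth, Cbs and Ahcy was not tested. On the array without choline 70.7% of 43020 non-control spots were well above background, against 68.5% with choline, and 0 spots were saturated.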

How the data were processed

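Per the file headers, each array was scanned in 1 colour, and the deposited intensity (processed signal) has had background subtracted and a spatial trend removed, array by array, without scaling between arrays. Per the submitters' processing notes, Agilent Feature Extraction 12.1.1.1 was used. The deposited value table holds a ratio, each processed signal divided by 1609 without choline and by 1280 with choline. The authors' description of that step was not in the sources used. The divisors nearly equal the arrays' 75th percentiles of signal, 1609.45 without choline and 1279.58 with choline. The deposited table is therefore nearly the reported scaling and no separate check of it. The table's ratio is linear, uncentred and of the same direction as the scanner values, with medians of 0.0358 without choline and 0.0337 with choline.

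Log2 processed signals were set relative to the 75th percentile over non-control spots of each array. Spots flagged as outliers (92 and 86) were left out, and spots of a probe were averaged. A probe was measured when well above background and unsaturated on both arrays (26447 of 39426 probes). A gene's value is the mean over its measured probes, and its error the mean of their errors. Gene names are those of the files. With 1 array per group no test was possible, so genes were counted at 1.5-fold. Every member is named, with up to 4 genes per neighbouring list that were at least 1.5-fold apart and over 2 errors. Some, but not all, of the list genes above background on 1 array or neither are also named. Mettl16, Gclm, Aldh7a1, Sardh, Pipox, Atf4 and Asns were added for their role after their values were seen. The 10 members and all lists were chosen with earlier results of these data known.

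Alternatives were median, quantile, cyclic loess and spike-in (5 probes) scaling, normexp with offset 50, the deposited table, other probe filters, the brightest probe and other sizes. Python 3.11.15, pandas 2.3.3, R 4.3.3 and limma 3.58.1 were used, and the summaries were tested on simulated data. The number of arrays limits the precision. Some genes are not reported here.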

Additional observations from a re-analysis of the deposited data

How the results depend on the processing

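Over all alternatives tried, the count of members higher was 0, where between 7.67% and 24.2% of all genes were. The count of members lower was between 2 and 4. It was 4 with median scaling (beside 20.4% of all genes) and by the rule of over 2 errors (22.6%). It was 2 with spike-in scaling (5.96%), the brightest probe (14.5%), the brighter probes only (15.5%, with 6 members measured) and at 2-fold (3.88%). The median difference of the members was -0.0868 with spike-in scaling, a setting that adds one constant to all genes. Over the 100 measured genes of the 9 neighbouring lists, the count of lower genes was 11 after cyclic loess (beside 10.7% of all genes) and 8 with spike-in scaling (5.96%). It was 5 at 2-fold (3.88%) and 35 over 2 errors (22.6%). The count of higher genes was 7 at 2-fold (7.67%). Cth, Cbs and Ahcy, the members past 1.5-fold, kept their sign under each alternative that measured them. For these genes the unfiltered probes and the deposited table could hardly differ from the reported setting. No paired analysis was possible because each group has 1 array. With no second array per group, no result could be recomputed without a replicate. Low signal over background limits Bhmt, with 3 of 4 probes not well above it.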

Other observations

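A further probe, A_55_P1970498, carries an accession of Mtr but the gene name Gm10336, and so was outside the chosen members. It was looked up after the values were seen. Its signal was 88.7 without choline, against 82.9 with choline, a difference of -0.23 ± 0.21, beside -0.36 and -0.58 for the 2 probes named Mtr.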
